A study of Mus musculus with 6 samples.

Results

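The core and primed pluripotency factors examined here are 10 genes, Pou5f1, Nanog, Sall4, Utf1, Zscan10, Foxd3, L1td1, Dppa4, Zfp281 and Tcf7l1. They were listed by name as factors known for pluripotency. That rule uses no measured value, but the members were chosen with earlier results of these data known. These genes are 10 of the 52609 annotated genes in the transcript tables, and their 43 transcripts are part of 133399. All 6 libraries come from polyadenylated RNA of mouse epiblast stem cells, a cultured counterpart of the postimplantation epiblast, made with a strand-preserving kit. Per the labels, the 3 libraries without Activin A came from cells given FGF2 at 10 ng/mL, the Wnt secretion blocker IWP2 at 5 µM and SB431542 at 2 µM, which inhibits the receptor kinases of the Activin, Nodal and TGF-beta branch. The 3 libraries with Activin A had those same 3 agents plus Activin A at 20 ng/mL. Cells of both groups grew with serum replacement on inactivated mouse embryonic fibroblasts, which also supply RNA to a bulk library. The labels do not say whether replicates were separate cultures, so each p-value reflects only how these libraries vary, which may be technical.

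Pou5f1 encodes OCT4, a POU-domain transcription factor without which pluripotent cells are not maintained, and Nanog encodes its homeodomain partner. In primed cells, Activin and Nodal signal through SMAD2 and SMAD3, and Nanog is a known target of these proteins. Around this core stand regulators such as the zinc finger proteins SALL4, ZSCAN10 and ZFP281, the forkhead factor FOXD3, the chromatin-associated proteins UTF1 and DPPA4, the RNA-binding protein L1TD1, and TCF7L1, a repressor at the end of the Wnt pathway.

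Library totals were 13567995 to 14992042 estimated reads without Activin A and 9946521 to 16350923 with it. For replicate 1 of the group without Activin A, the label on growth factors lists Activin A although title and genotype say otherwise, and the treatment protocol lists it for all 6. The library with Activin A replicate 3 was the shallowest. The series' design text speaks of 2 lines with 3 replicates each, and no label ties a line to a sample, so a difference between lines cannot be told apart from one between media. Of 8 markers of epiblast stem cells, Pou5f1 among them, all were detected, at a summed 1232 to 1251 CPM (counts scaled by library size with TMM factors) without Activin A and 1608 to 1638 CPM with it. Pou5f1 alone was at 121 CPM without and 374 CPM with Activin A, so the member itself holds much of that difference. By edgeR 6 of the 8 were lower and 2 higher, where 15.2% and 14.0% of all tested genes were. With limma-trend the numbers were 5 and 2. All 15 fibroblast feeder markers were above 0, at a summed 1383 to 1426 CPM without Activin A and 1212 to 1288 CPM with it. Of these 15, edgeR called 6 lower and 3 higher, against 3 and 3 with limma-trend, 4 and 3 with an offset for transcript length and 8 and 3 with upper-quartile scaling. In bulk RNA, fewer cells of a type and less RNA per cell cannot be told apart.

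The promoters of the most strongly affected members, Nanog, Pou5f1, Utf1 and Foxd3, are shown first. They were picked by the size of their fall and not by the motifs they hold. The motifs searched for are letters that factors of the same network are known to bind. Each window runs from 250 bases before to 50 bases after an annotated start, from RefSeq on GRCm38.p6. Of the 10 members, 8 matched an entry, with 10 windows in all. Capitals mark the motifs found on either strand, which were an octamer (TTTGCAT or ATGCAAA), a SOX motif (CATTGT or ACAATG), a SMAD motif (CAGAC or GTCTG), a FOXH1 motif (AATCCACA or TGTGGATT), a TCF/LEF motif (CTTTGA or TCAAAG) and a ZFP281 motif (CCCCTCCC or GGGAGGGG).

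Nanog, chr6:122707315-122707614, plus strand: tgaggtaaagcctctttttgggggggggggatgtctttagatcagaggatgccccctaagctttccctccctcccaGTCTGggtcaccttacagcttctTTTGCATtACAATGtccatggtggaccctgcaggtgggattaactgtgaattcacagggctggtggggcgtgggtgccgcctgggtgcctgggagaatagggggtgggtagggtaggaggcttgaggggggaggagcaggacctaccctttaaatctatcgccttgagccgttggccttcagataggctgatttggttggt
Pou5f1, chr17:35505782-35506081, plus strand: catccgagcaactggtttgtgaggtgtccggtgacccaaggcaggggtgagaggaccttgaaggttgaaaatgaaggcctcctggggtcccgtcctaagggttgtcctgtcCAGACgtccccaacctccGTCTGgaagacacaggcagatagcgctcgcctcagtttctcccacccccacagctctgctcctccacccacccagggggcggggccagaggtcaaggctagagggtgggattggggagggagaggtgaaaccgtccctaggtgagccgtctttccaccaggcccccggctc
Pou5f1, internal start, chr17:35508557-35508856, plus strand: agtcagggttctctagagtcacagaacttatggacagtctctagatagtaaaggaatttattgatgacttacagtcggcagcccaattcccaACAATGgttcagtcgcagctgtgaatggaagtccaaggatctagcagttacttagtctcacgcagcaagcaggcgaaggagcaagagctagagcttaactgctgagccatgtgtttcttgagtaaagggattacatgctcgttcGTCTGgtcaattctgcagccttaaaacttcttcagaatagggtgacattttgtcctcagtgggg
Utf1, chr7:139943606-139943905, plus strand: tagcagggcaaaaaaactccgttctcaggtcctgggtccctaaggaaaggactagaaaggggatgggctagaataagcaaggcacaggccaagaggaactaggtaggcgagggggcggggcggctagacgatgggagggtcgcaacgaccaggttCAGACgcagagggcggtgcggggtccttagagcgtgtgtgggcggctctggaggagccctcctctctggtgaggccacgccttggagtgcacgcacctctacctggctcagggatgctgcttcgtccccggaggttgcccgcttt
Foxd3, chr4:99656049-99656348, plus strand: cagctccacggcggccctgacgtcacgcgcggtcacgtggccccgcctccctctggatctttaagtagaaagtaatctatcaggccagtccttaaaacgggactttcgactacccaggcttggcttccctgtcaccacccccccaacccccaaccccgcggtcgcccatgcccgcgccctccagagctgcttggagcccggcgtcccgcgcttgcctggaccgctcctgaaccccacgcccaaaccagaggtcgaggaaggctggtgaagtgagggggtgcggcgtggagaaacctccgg

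In the Nanog window the octamer lay at -151 to -145 from the start and the SOX motif at -143 to -138, with 1 base between them. The second Nanog window, which overlaps this one, holds the same pair. No window of another member held the octamer, which was present in 4.6% of the 32851 promoters of this length. The SOX motif, in 12.6% of promoters, was also in the internal Pou5f1 window at -158 to -153. The SMAD motif is short and was in 49.6% of promoters and in 8 of the 10 member windows, those of the uncalled Zscan10 and Zfp281 and of L1td1 included. In the windows printed it stood at -174 to -170 in Nanog, at -139 to -135 and -121 to -117 in Pou5f1, at -14 to -10 in the internal Pou5f1 window and at -95 to -91 in Utf1. The ZFP281 motif, in 12.2% of promoters, was in the windows of L1td1, Zfp281 and Tcf7l1. The Foxd3 window held none of the 6 motifs. No member window held the FOXH1 or TCF/LEF motif, found in 0.9% and 16% of promoters. A match describes letters and not a bound site.

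Of the 10 members, 9 passed the filter on low counts, and 5 of these were lower without Activin A (Pou5f1, Nanog, Utf1, Foxd3 and L1td1) at an edgeR adjusted p under 0.05. None of the 9 was called higher, none had an unadjusted p under 0.05 in that direction, and DESeq2 called 0. The untested member, Dppa4, is described below. Over all 15448 genes tested, 15.2% were called lower and 14.0% higher. The median log2 change was -0.87 over the 9 members and 0.0012 over all genes tested. The summed level of the 10 members was 647 to 662 CPM without Activin A and 1170 to 1243 CPM with it. Pou5f1 (121 CPM without, 374 CPM with) and Nanog (59.5 CPM without, 235 CPM with) hold much of that difference. In the 5 genes that fell, all 3 libraries without Activin A lay below all 3 with it, an arrangement found in 21.6% of tested genes. The opposite arrangement was found in 21.3% of tested genes and in 0 of the 9 members. Foxd3 passed the filter of 0.718 CPM only through the libraries with Activin A, so its passing already required a difference.

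**Figure D1:**
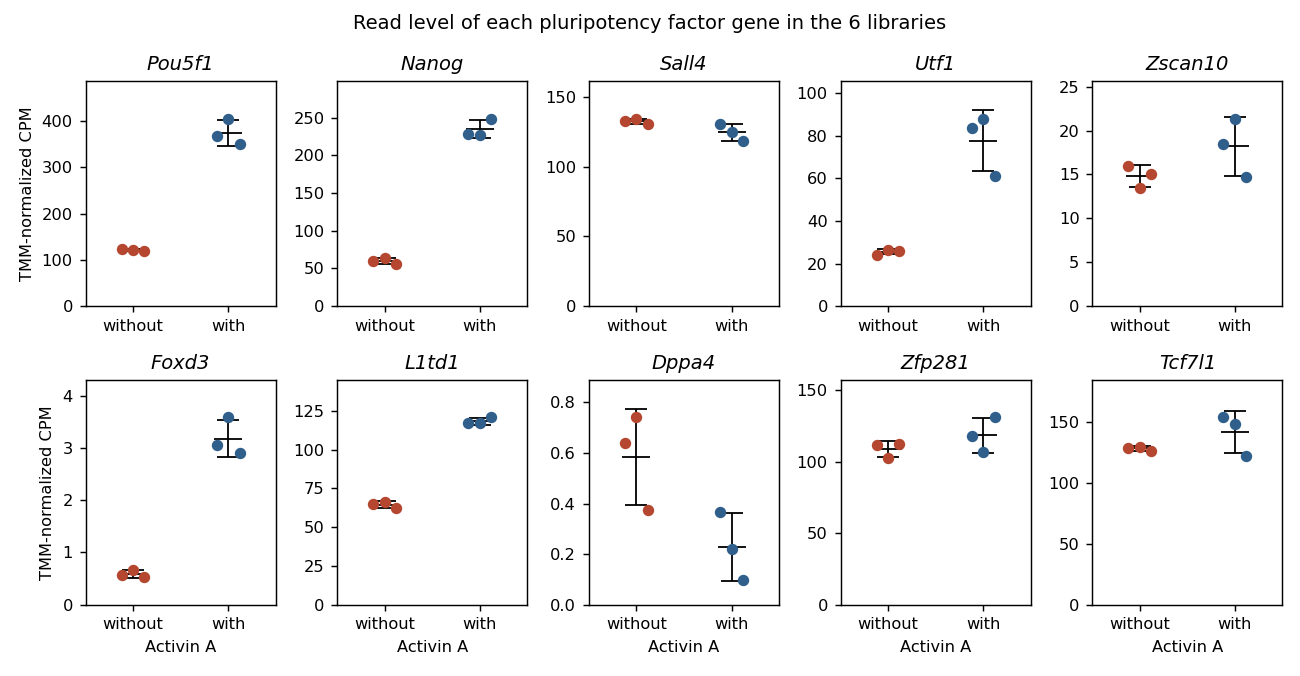
TMM-normalized CPM (vertical axis, from 0) of each of the 10 genes, with 3 libraries without Activin A at left and 3 with it at right in each panel; points are libraries, and bars give mean ± SD. Pou5f1, Nanog, Utf1, Foxd3 and L1td1 separate fully, while the points of Sall4, Zscan10, Zfp281 and Tcf7l1 overlap; Dppa4 stays under 0.75 CPM.

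Pou5f1 (ENSMUSG00000024406.16, chr17:35506018-35510772, plus strand) had 123.2, 122.1 and 118.6 CPM without Activin A, against 367.1, 405.1 and 350.3 CPM with it. The groups were far apart relative to their spread, 121 ± 2.35 CPM without and 374 ± 28.1 CPM with Activin A (SD, n = 3 each). Pou5f1 fell by 1.63 on the log2 scale (SE 0.058, 95% interval -1.75 to -1.50), a 3.09-fold lower level, with an edgeR adjusted p of 4.73e-11. The length-scaled level was 101.8 ± 3.13 TPM without Activin A and 309.8 ± 5.36 TPM with it, the highest of the 10 genes in both groups.

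Nanog (ENSMUSG00000012396.12, chr6:122707489-122714633, plus strand) had 59.66, 63.33 and 55.62 CPM without Activin A, against 228.9, 227.0 and 248.9 CPM with it. The highest library without Activin A lay far below the lowest with it. Nanog fell by 1.98 on the log2 scale (SE 0.061, 95% interval -2.11 to -1.85), a 3.94-fold lower level (edgeR adjusted p = 1.15e-11). Of the tested genes, 0.693% fell further than Nanog and 1.12% further than Pou5f1. The difference was large but shared by many genes, since 178 of the 15448 were called and at least 3-fold lower.

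Both core factors fell, and their proportion also differed. The Nanog TPM over the Pou5f1 TPM was 0.190, 0.201 and 0.181 without Activin A, against 0.239, 0.227 and 0.281 with it. All 3 libraries without Activin A had the smaller ratio. An exact two-sided permutation test gave p = 0.10, the smallest that 3 libraries against 3 allow. Sox2, the SOX partner of OCT4, did not fall with them. Its level was 109.6 ± 3.43 CPM without Activin A and 82.4 ± 4.12 CPM with it, a 1.33-fold rise (edgeR adjusted p = 5.67e-05). Sox2 TPM was therefore 0.375 ± 0.0102 of Pou5f1 TPM without Activin A and 0.0918 ± 0.0113 with it, with the same exact permutation p of 0.10.

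Utf1 (ENSMUSG00000047751.9, chr7:139943789-139945112, plus strand) encodes a chromatin-associated protein of undifferentiated embryonic cells. It had 24.09, 26.34 and 25.87 CPM without Activin A, against 83.73, 88.03 and 61.25 CPM with it. The groups did not overlap, although the shallow library with Activin A replicate 3 was lower than the other libraries of its group. Utf1 fell by 1.62 on the log2 scale (SE 0.132, 95% interval -1.92 to -1.32), a 3.08-fold lower level (edgeR adjusted p = 2.92e-05). Its size was close to that of Pou5f1, with a wider interval.

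Foxd3 (ENSMUSG00000067261.4, chr4:99656299-99658622, plus strand), a forkhead gene of 1 exon needed in the early epiblast and later in the neural crest, had few reads. They numbered 8, 10 and 7 without Activin A, against 50, 49 and 29 with it. As normalized values these were 0.567, 0.674 and 0.523 CPM without Activin A and 3.06, 3.59 and 2.89 CPM with it, with no overlap. Foxd3 fell by 2.42 on the log2 scale (SE 0.255, 95% interval -2.96 to -1.87), 5.34-fold, with an edgeR adjusted p of 4.86e-06. It had the largest fall of the 9 tested members and the widest interval. Since it passed the filter only through the libraries with Activin A, this rank and its adjusted p are not independent support. On the log2(TPM + 1) scale of limma-trend, which understates changes of low genes, its change was -0.73.

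L1td1 (ENSMUSG00000087166.9, chr4:98726734-98738480, plus strand) encodes an RNA-binding protein derived from a LINE-1 element. It had 64.98, 66.36 and 62.43 CPM without Activin A, against 117.0, 117.2 and 120.9 CPM with it. Replicates lay within a few CPM of one another in both groups, so a smaller change was still well resolved. L1td1 fell by 0.87 on the log2 scale (SE 0.053, 95% interval -0.99 to -0.76), 1.83-fold, with an edgeR adjusted p of 1.34e-08. Of the tested genes, 4.59% fell further.

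The other 4 tested members did not pass the edgeR threshold. Sall4 (ENSMUSG00000027547.17, chr2:168748332-168767943, minus strand), a zinc finger partner of OCT4 and NANOG, had 132.6, 134.6 and 130.4 CPM without Activin A and 130.7, 125.3 and 118.5 CPM with it. The groups overlapped, and the log2 difference was 0.08 (SE 0.052, 95% interval -0.03 to 0.20, edgeR adjusted p = 0.257). The lower end of that interval lies far from the changes of Pou5f1 and Nanog. Sall4 TPM was 0.368 ± 0.0324 of Pou5f1 TPM without Activin A and 0.121 ± 0.0116 with it. Of that Sall4 TPM, 41.28% without and 40.65% with Activin A came from Sall4-207, a transcript of 393 bases with few reads.

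Zfp281 (ENSMUSG00000041483.14, chr1:136624901-136630053, plus strand), a zinc finger gene needed for the exit from naive pluripotency, had 111.7, 102.5 and 112.7 CPM without Activin A and 117.7, 107.0 and 131.2 CPM with it. The groups overlapped, with a log2 difference of -0.12 (SE 0.069, 95% interval -0.27 to 0.03, edgeR adjusted p = 0.222). Tcf7l1 (ENSMUSG00000055799.13, chr6:72626378-72789254, minus strand), which represses Nanog among other genes in embryonic stem cells, had 128.6, 129.5 and 125.8 CPM without Activin A and 153.6, 148.3 and 121.7 CPM with it. The shallow library with Activin A replicate 3 lay below all 3 libraries without Activin A, and the other two above them. The log2 difference was -0.15 (SE 0.072, 95% interval -0.30 to 0.0066, edgeR adjusted p = 0.145). With that shallow library left out it was -0.24, with an edgeR adjusted p of 2.13e-05. Tcf7l1 TPM was 1.97 ± 0.287 times Nanog TPM without Activin A and 0.534 ± 0.101 times with it.

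Zscan10 (ENSMUSG00000023902.18, chr17:23600856-23611019, plus strand), a SCAN-domain zinc finger gene of pluripotent cells, had 15.94, 13.47 and 15.03 CPM without Activin A and 18.52, 21.37 and 14.67 CPM with it. The groups overlapped through the same shallow library. The log2 difference was -0.31 (SE 0.118, 95% interval -0.57 to -0.06, edgeR adjusted p = 0.0613), and without that library it was -0.43 with an edgeR adjusted p of 0.000862. Dppa4 (ENSMUSG00000058550.15, chr16:48283733-48294237, plus strand), a DNA-binding protein of pluripotent and germ cells, was near the detection limit and was not tested. Its reads numbered 9, 11 and 5 without Activin A and 6, 3 and 1 with it, overlapping as reads and barely apart after scaling. With no filter its log2 difference was 1.24 (SE 0.575), with an unadjusted p of 0.0317 and an edgeR adjusted p of 0.166.

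**Figure D2:**
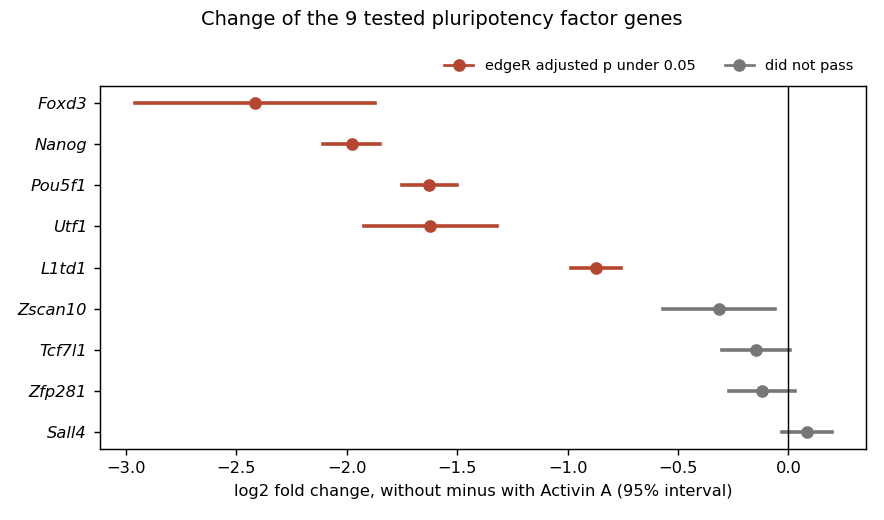
Log2 fold change without minus with Activin A (horizontal axis) of the 9 tested genes, with 95% intervals derived from the edgeR F statistic. Red marks an adjusted p under 0.05 and grey marks genes that did not pass. Foxd3, Nanog, Pou5f1 and Utf1 lie between -2.42 and -1.62, L1td1 at -0.87, and the intervals of Tcf7l1, Zfp281 and Sall4 cross 0.

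Set side by side per length, the levels took another order in each group. Without Activin A, Pou5f1 at 101.8 TPM was followed by Tcf7l1 at 38.0 TPM and Sall4 at 37.6 TPM, which overlapped. Then came L1td1 at 21.9, Nanog at 19.4, Utf1 at 16.4, Zfp281 at 14.6 and Zscan10 at 5.77 TPM, with no overlap between neighbours. Dppa4 and Foxd3, at 0.310 and 0.179 TPM, came last and overlapped. With Activin A, Pou5f1 at 309.8 TPM was followed by Nanog at 77.0 TPM. The next 4 genes, Utf1 at 49.1, Tcf7l1 at 40.6, Sall4 at 37.4 and L1td1 at 37.3 TPM, each overlapped with the next. Zfp281 at 15.8, Zscan10 at 6.29, Foxd3 at 0.950 and Dppa4 at 0.111 TPM closed the order. Nanog thus stood in place 5 without Activin A and in place 2 with it. Short transcripts with few reads weigh heavily in these TPM sums. Sall4-207, of 393 bases, held 41.28% of the Sall4 TPM on 2.7% of its reads without Activin A. With Activin A it held 40.65% on 2.8%. In the same order, L1td1-203 held 19.3% on 2.3% and 15.2% on 1.7%. Tcf7l1-204 held 16.2% on 1.7% and 13.8% on 1.4%. The places of genes with close levels therefore rest partly on few reads.

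**Figure D3:**
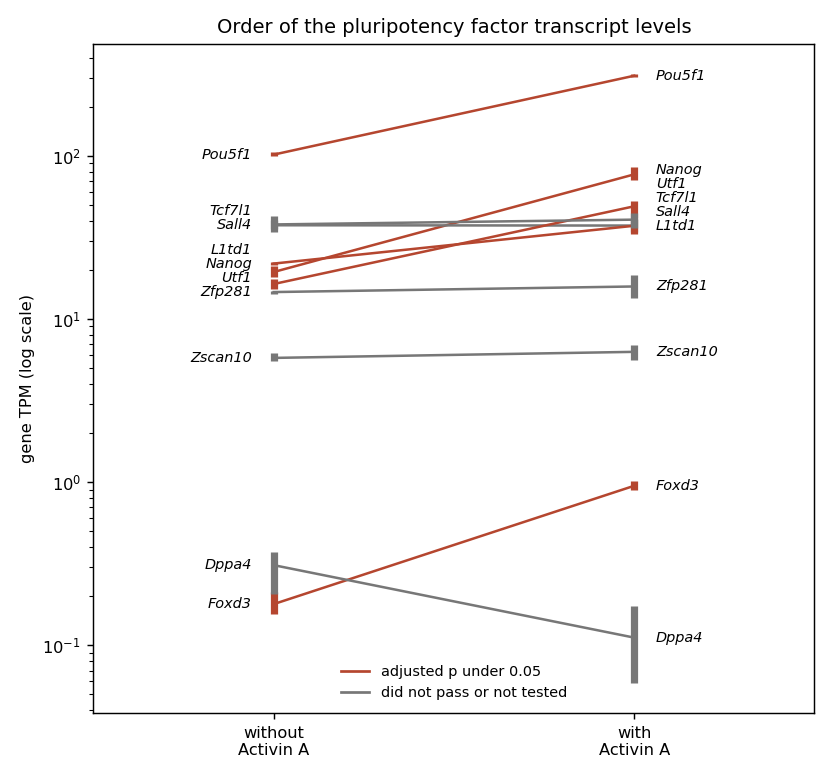
Mean gene TPM (log scale) of the 10 genes without Activin A at left and with it at right; thick bars span the lowest to the highest of 3 libraries, and red lines mark genes called by edgeR on counts. Nanog, at 19.4 TPM without Activin A and 77.0 TPM with it, crosses Tcf7l1, Sall4 and L1td1.

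Of the 43 transcripts, 24 were tested and 7 were lower without Activin A, namely Pou5f1-201, Pou5f1-202, Nanog-201, Nanog-202, Utf1-201, Foxd3-201 and L1td1-202. Of these 7, Nanog-202 and Foxd3-201 passed the filter only through the libraries with Activin A. None of the 24 was called higher, none had an unadjusted p under 0.05 in that direction, and DESeq2 called 0. The count called lower was 3 when any of the 3 libraries without Activin A was left out and 4 when replicate 1 with Activin A was. It was 3 with both doubted libraries left out (without Activin A replicate 1 and with Activin A replicate 3). Over the 39997 transcripts tested, 1.44% were lower and 1.28% higher. Shares of transcripts within their gene were tested for 22, and edgeR called 0, against 0.430% of all 33992 tested. At an unadjusted p under 0.05 there were 3, and limma called 1. For these last counts no share over all transcripts was computed, so they cannot be set against a background. Of the 24 transcripts that held at least 10% of their gene's TPM, 14 averaged at least 100 reads per library and are described with their tests.

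Pou5f1-201, the full-length transcript of 1362 bases and 5 exons, had 90.3% ± 0.54 of the Pou5f1 reads without Activin A and 90.2% ± 0.75 with it (SD, n = 3 each). The remainder belonged almost wholly to Pou5f1-202, a transcript of 435 bases that starts at position 35508805, within the internal window printed above. Pou5f1-202 had 9.70% ± 0.45 of the reads without Activin A and 9.71% ± 0.77 with it, or 39.1% of the gene's TPM in both groups because of its length. Both transcripts fell, with log2 changes of -1.65 (SE 0.067) for Pou5f1-201 (edgeR adjusted p = 0.000542) and -1.65 (SE 0.104) for Pou5f1-202 (edgeR adjusted p = 0.0021). Only 26 of the 405 words of 31 bases in Pou5f1-202 occur in no other transcript, so its level rests on little sequence of its own.

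Nanog has 3 annotated transcripts, all tested. Nanog-201 had 92.78%, 91.8% and 78.14% of the Nanog reads without Activin A, against 73.49%, 62.67% and 85.52% with it. The groups overlapped in share, and the transcript fell by 1.76 on the log2 scale (SE 0.183, edgeR adjusted p = 0.0115). Leaving out any library without Activin A, or replicate 1 with it, ended that call (edgeR adjusted p of 0.0552 to 0.0785). Nanog-203, with 7.22%, 8.2% and 21.86% of the reads without Activin A and 23.57%, 33.78% and 5.73% with it, did not pass. Its log2 change was -2.78 (SE 0.72, edgeR adjusted p = 0.142), and DESeq2 gave an adjusted p of 0.00706. Nanog-202 was given almost no reads without Activin A and 110.2, 110.2 and 218.5 reads with it. It passed the filter only through the libraries with Activin A, so its call (edgeR adjusted p = 0.0419) already required a difference. Only 27 of the 1965 words of 31 bases in Nanog-203 and 32 of the 1981 in Nanog-202 are their own, so the split between the 3 transcripts is uncertain.

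Sall4 did not pass as a gene, and the split between its 2 largest transcripts by reads varied among libraries. Sall4-201 (5073 bases, 4 exons) had 83.92%, 76.71% and 81.25% of the reads without Activin A, against 75.61%, 70.76% and 63.94% with it. Sall4-202 (2534 bases, 3 exons) had 6.83%, 15.94% and 14.44% of the reads without Activin A, against 19.26%, 24.61% and 30.88% with it. In read share, all 3 libraries without Activin A lay below all 3 with it for Sall4-202, and above them for Sall4-201. How many of all transcripts separate in this way was not computed. The level of Sall4-202 had a log2 difference of -0.93 (SE 0.336, edgeR adjusted p = 0.274, DESeq2 adjusted p = 0.0488). Its share had a log2 difference of -0.69 with an edgeR adjusted p of 0.128, and limma on log2(TPM + 1) gave -1.04 with an adjusted p of 0.0448, the 1 share called. Sall4-202 has 26 words of 31 bases of its own out of 2504.

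L1td1-202 had 68.6% ± 4.53 of the L1td1 reads without Activin A and 72.0% ± 5.96 with it, and fell by 0.97 on the log2 scale (SE 0.081, edgeR adjusted p = 0.00497). L1td1-204, with 26.2% of the reads without Activin A and 23.7% with it, had a log2 change of -0.75 (SE 0.20, edgeR adjusted p = 0.149, DESeq2 adjusted p = 0.00677). Utf1-201 and Foxd3-201 are the only annotated transcripts of their genes and hold the same reads. Their falls (edgeR adjusted p = 0.00758 and 0.0157) therefore repeat the gene results. As at gene level, Foxd3-201 passed the filter only through the libraries with Activin A, so its call already required a difference. Both calls were lost when any library without Activin A was left out, with an edgeR adjusted p of 0.0600 to 0.0664 for Utf1-201 and 0.0752 to 0.0921 for Foxd3-201. Leaving out replicate 1 or replicate 2 with Activin A also ended the call of Foxd3-201 (0.0724 and 0.0704). Tcf7l1-201 had 85.1% ± 2.93 of the reads without Activin A and 84.5% ± 1.85 with it, and neither it nor Tcf7l1-202 passed (edgeR adjusted p = 0.499 and 0.637).

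The 2 transcripts of Zfp281, of 4933 and 4937 bases, show how far such splits can vary within a group. Zfp281-201 was given 57.82%, 79.63% and 55.26% of the reads without Activin A, against 4.97%, 44.0% and 72.78% with it, while the gene's sum did not pass the test. They have 30 and 34 words of 31 bases of their own, and neither passed (edgeR adjusted p = 0.865 and 0.536). Zscan10-201, with no such word among 12 annotated transcripts, varied likewise, with 62.75%, 36.85% and 81.87% of the reads without Activin A against 73.56%, 30.03% and 62.86% with it (edgeR adjusted p = 0.933).

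**Figure D4:**
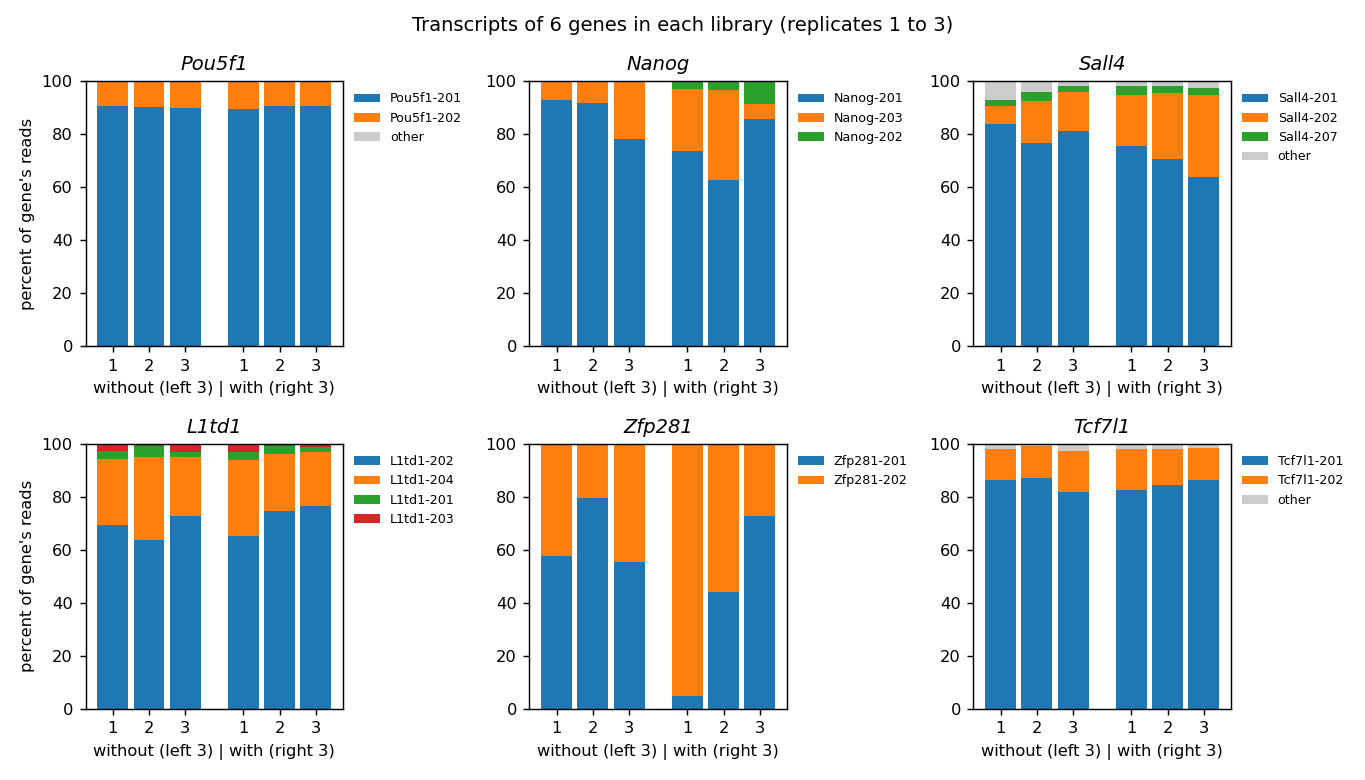
Percent of each gene's reads given to each transcript (stacked bars, 0 to 100) in 6 genes, with the 3 libraries without Activin A at left and the 3 with it at right in each panel. The bars of Pou5f1 are alike in all 6 libraries, while Zfp281-201 ranges between 4.97% and 79.63%.

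Sequence shared with other genes touched the members unequally. The share of 31-base words also found elsewhere was 14.2% for Pou5f1, 10.7% for Nanog, 8.39% for Sall4, 6.92% for L1td1, 5.54% for Foxd3 and 2.18% for Tcf7l1. For Utf1 and Zfp281 it was 0. Dppa4 was the most exposed, with 40.1% of its words shared, 28.7% with the pseudogene Gm14058. Nanog shared 4.6% with its pseudogene Nanog-ps1. Genes on the opposite strand overlap exons of Pou5f1 (Gm19553), Sall4 (Gm14261) and Tcf7l1 (Gm15401). Whether strand was used in the counting is not given in the sources used here, and these 3 genes had 0 to 5 reads in any library.

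The relatives and partners of the members did not move as a block. A list of 40 core partners and primed-state genes had 34 tested, with 15 lower and 11 higher without Activin A (median log2 change -0.04). Over all tested genes 15.2% were lower and 14.0% higher. With limma-trend 10 of the list were lower and 7 higher, and with the length offset 12 and 8. Tdgf1, the Nodal co-receptor Cripto, was at 1.30 ± 0.087 CPM without Activin A and 33.6 ± 1.16 CPM with it, 25.7-fold lower (edgeR adjusted p = 1.57e-12). Etv5, an ETS factor downstream of FGF signalling, and Slc7a3, an amino acid transporter, also fell, 2.94-fold and 2.20-fold. In the other direction, Nr6a1, a nuclear receptor known to repress Pou5f1 during differentiation, was at 170.4 ± 5.49 CPM without Activin A and 84.6 ± 3.68 CPM with it, 2.02-fold higher (edgeR adjusted p = 3.15e-09). Eras, a RAS-like gene of embryonic stem cells, rose 2.73-fold, and Lin28a, an RNA-binding inhibitor of let-7 maturation, rose 1.59-fold.

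Genes for proteins that bind OCT4 or NANOG, mostly parts of chromatin complexes, were all tested. Of these 34, 1 was lower and 12 were higher (median log2 change 0.09). With limma-trend 0 were lower and 5 higher, with the length offset 1 and 6, and with both doubted libraries left out 2 and 15. Hdac2, a histone deacetylase, was at 231.6 ± 8.86 CPM without Activin A and 280.5 ± 23.9 CPM with it (edgeR adjusted p = 0.00318), a call lost with limma-trend on log2(TPM + 1), where the adjusted p was 0.113. Arid3b, a DNA-binding ARID-domain gene, rose 1.52-fold, Rbbp7, a histone-binding subunit, rose 1.32-fold, and Sox2, described above, is also in this list.

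Within the members' own families, the changes differed from gene to gene. Foxd4 was at 12.2 ± 0.083 CPM without Activin A and 2.85 ± 0.458 CPM with it, a 4.25-fold rise (edgeR adjusted p = 2.21e-08) where Foxd3 fell. Foxd1 and Foxd2 did not pass the filter. Of 13 other POU genes, 8 were tested. Pou6f1 fell 2.31-fold (edgeR adjusted p = 1.18e-08) and Pou2f1 rose 1.38-fold (edgeR adjusted p = 9.76e-05), although Pou2f1 was not called with limma-trend on log2(TPM + 1) or the length offset (adjusted p = 0.218 and 0.297). Pou2f2, with few reads, passed with edgeR (adjusted p = 0.0156) and not with DESeq2. It was also lost with limma-trend on log2(TPM + 1) (adjusted p = 0.2) and the length offset (0.11). Leaving out replicate 1 or 3 without Activin A (0.0667 and 0.0628) or replicate 1 with it (0.13) ended the call too.

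Sall1, Sall2 and Sall3, developmental zinc finger genes, were all called higher without Activin A, by 1.30-fold, 1.14-fold and 1.97-fold (edgeR adjusted p = 0.000239, 0.00885 and 0.0123), under TMM, RLE and upper-quartile scaling alike. Leaving out replicate 3 of the group without Activin A ended the calls of Sall2 and Sall3 (edgeR adjusted p = 0.0588 and 0.0512). Sall3 was also lost without replicate 2 with Activin A (0.0579), without both doubted libraries (0.0645) and with DESeq2 (0.0877). Neither was called with limma-trend or the length offset. Of the TCF/LEF genes, which bind DNA for beta-catenin, Tcf7 was 1.30-fold lower (edgeR adjusted p = 0.000236) and Lef1 1.32-fold higher (0.00299). Tcf7l2 was 1.27-fold higher by edgeR (adjusted p = 0.0338) and lost its call under upper-quartile scaling, where the adjusted p was 0.0534, and in 5 of the 6 fits that left out 1 library. The 3 relatives of Zfp281 did not pass, although 2 were called higher with both doubted libraries left out. Of 12 SCAN-domain genes 9 were tested and 1, Zscan29, was called higher (edgeR adjusted p = 0.0364). That call was lost under upper-quartile scaling (0.0564), with DESeq2 (0.141) and in 5 of the 6 fits that left out 1 library (0.0513 to 0.180). The other 4 DPPA genes did not pass the filter, with a summed level of at most 0.606 CPM without Activin A and 0.550 CPM with it.

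**Figure D5:**
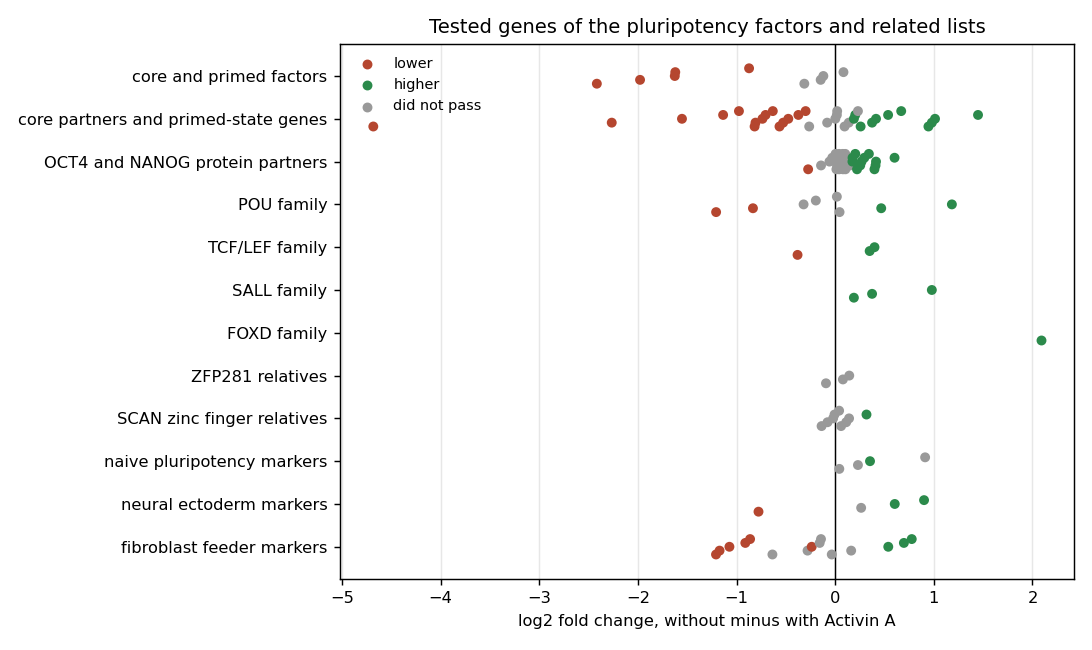
Log2 fold change without minus with Activin A (horizontal axis) of every tested gene in the pluripotency factors and 11 related lists; each point is a gene, red called lower, green called higher and grey not passed by edgeR. The members lie from -2.42 to 0.08, whereas partner and family lists hold points on both sides of 0 or mainly above it.

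Markers of other states were compared beside the members. Of 8 neural ectoderm markers 4 were tested. Nes was lower at 96.8 ± 0.27 CPM without Activin A and 165.9 ± 0.72 CPM with it (edgeR adjusted p = 1.44e-08), while Sox1 was higher at 46.9 ± 0.18 CPM without and 31.01 ± 2.52 CPM with Activin A (edgeR adjusted p = 1.05e-05). Lhx2, at 2.60 ± 0.144 CPM without and 1.35 ± 0.552 CPM with Activin A, was called higher by edgeR (adjusted p = 0.0176) and not by DESeq2. The call was also lost with limma-trend on log2(TPM + 1) (adjusted p = 0.0888) and the length offset (0.144). Leaving out replicate 1 of either group (0.0638 and 0.0689) or both doubted libraries (0.0978) ended it too. Of 6 naive pluripotency markers 4 were tested, and Klf4 was 1.28-fold higher (edgeR adjusted p = 0.00321). Of 6 primitive streak and endoderm markers, only Eomes was tested, and it was lower at 0.331 ± 0.045 CPM without Activin A and 0.980 ± 0.056 CPM with it (edgeR adjusted p = 0.00591, DESeq2 adjusted p = 0.0655). Eomes passed the filter of 0.718 CPM only through the libraries with Activin A, so its call already required a difference. It was not called with limma-trend on log2(TPM + 1) (adjusted p = 0.13) or the length offset (0.0688). Of 4 germ cell markers 1 was tested and did not pass. Among the feeder markers Col3a1, Lox and Thy1 were lower, 2.31-fold, 2.10-fold and 2.25-fold, and Col1a2, Col5a2 and Col1a1 were higher, 1.71-fold, 1.62-fold and 1.45-fold. Thy1 was not called with the length offset (adjusted p = 0.0542) or limma-trend on log2(TPM + 1) (0.0653). The part of these cell types in the members' changes was not tested.

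The genes whose profiles over the 6 libraries were nearest to those of the core factors were found by the root mean square distance of centred log2 CPM among 7822 genes. Those nearest to Pou5f1 were Etv5 (0.0518), Chst15 (0.0616), Cdhr1 (0.0701), Steap3 (0.0731) and Cpt1a (0.0794). Etv5 had 41.0 ± 0.89 CPM without Activin A and 120.3 ± 4.12 CPM with it. Those nearest to Nanog were 1700019D03Rik (0.0409), Igfbp3 (0.0598), Crispld1 (0.0934), Cntn2 (0.126) and Ttyh1 (0.140). Igfbp3, which encodes a secreted binding protein of insulin-like growth factors, had 62.0 ± 1.76 CPM without Activin A and 232.4 ± 7.996 CPM with it, close to Nanog in level as well.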

How the data were processed

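Polyadenylated RNA was measured in 6 libraries in 2 groups of 3, assigned by titles and genotype labels. Per the file headers, the deposited tables hold salmon's estimated counts (not normalized) and TPM values (scaled by transcript length and library total) for 133618 transcripts. Salmon, DESeq2 and edgeR are named, with no version, in the submitters' processing notes. For the authors' genome build, annotation and strand setting, the entry is not given in the sources used here.

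Transcripts were matched by identifier, version ignored, to GENCODE M21 on GRCm38. Of them, 133399 matched, and the 219 that did not, with 0.131% to 0.149% of reads, were left out. Estimated counts and TPM were summed per gene, and gene and transcript counts were rounded to whole numbers. The test was that of edgeR 4.0.16 (R 4.3.3): filterByExpr (minimum count 10, minimum total 15), TMM scaling and a robust quasi-likelihood F test of the group without against the group with Activin A. Benjamini-Hochberg adjustment ran over all features tested, with a threshold of 0.05. Transcript shares within genes were tested with edgeR's diffSpliceDGE. CPM values are TMM-normalized, errors are SD over 3 libraries, and the depth of 9946521 to 16350923 reads limits what can be said of genes with few reads. The procedures were also tested on simulated counts.

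The members, related lists and tests were chosen with earlier results of these data known. The text names all 10 members, their transcripts with at least 10% of the gene's TPM (tests only for those averaging 100 reads, a limit set after their values were seen), up to 3 called genes per direction and list by smallest p, and the 5 protein-coding genes of at least 20 CPM nearest in profile to Pou5f1 and to Nanog. One gene that this rule names is not reported here. The settings also tried were DESeq2 1.42.0, scaling by RLE or by upper quartile, limma 3.58.1 (limma-trend on log2(TPM + 1) and log2(TPM + 0.1), diffSplice), no filter, a filter of 1 CPM in 3 libraries, a restriction to protein-coding genes, an offset for average transcript length, a block on replicate number, and removal of each library and of both doubted libraries (without Activin A replicate 1 and with Activin A replicate 3).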

Additional observations from a re-analysis of the deposited data

How the results depend on the processing

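The falls of Pou5f1, Nanog, Utf1, Foxd3 and L1td1 were called in all 17 alternative settings at gene level. The number of members called lower was 5 to 7 on leaving out 1 library in turn. Without the library with Activin A replicate 3, Tcf7l1 and Zscan10 were also called. With both doubted libraries left out, 7 were called, with Tcf7l1 at -0.25 (edgeR adjusted p = 0.000255) and Zscan10 at -0.49 (0.0014). Zscan10 was also called with upper-quartile scaling (0.0415), no filter (0.0144) and protein-coding genes only (0.0467), and Zfp281 without the library with Activin A replicate 2 (-0.19, adjusted p = 0.0455). Sall4 turned to -0.040 with the length offset, uncalled. Over all genes, 4505 were called, against 2050 with the length offset, 1559 and 1504 with limma-trend (pseudocounts 1 and 0.1), 3365 with DESeq2 and 3246 to 5689 on leaving out 1 library. Replicate numbers did not pair the libraries (correlations of same-numbered deviations -0.0249, -0.0521 and -0.057), and the replicate block changed no member's call at gene level. The 7 transcripts called lower became 1 under the block (Pou5f1-201), 3 with both doubted libraries left out and 3 to 7 on leaving out 1 library. The 0 transcript shares called became 1 with limma diffSplice. Near-zero shares changed sign with limma (Pou5f1-201 -0.0074, Pou5f1-202 0.0074, L1td1-204 -0.018, Tcf7l1-201 -0.00059) and on leaving out 1 library (Pou5f1-201 -0.0046 to 0.0030, Pou5f1-202 -0.028 to 0.043, Zscan10-201 -0.049 to 0.37, Tcf7l1-201 -0.0054 to 0.027), as did the transcripts Zscan10-201 (-0.41 to 0.20) and Zfp281-201 (-0.053 to 1.37). The cause was not tested. Depth limits Foxd3 and Dppa4, with at most 50 and 11 reads per library.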
